A study of Mus musculus with 18 samples.

Results

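The genes described are 37 genes of the vessel wall: the vascular endothelial growth factor (VEGF) ligands and receptors, the angiopoietin and Tie system, endothelial surface, signalling and transcription factor genes, lymphatic endothelial genes, and genes of the mural cells that cover vessels. They were taken as a fixed list of names out of the 18193 genes named on the array, and all 37 had a probe set. Of these, 34 are blood vessel and mural cell genes and 3 are lymphatic genes. RNA came from 3 fat depots of female Sv129 mice aged 10 weeks, interscapular brown adipose tissue (BAT), inguinal subcutaneous white adipose tissue (sWAT) and mesenteric white adipose tissue (mWAT). The mice were caged singly and kept for 10 days at 28°C or at 6°C. Each depot and temperature is a group of 3 arrays, 18 in all, which the study's methods call biological replicates, although no label links an array to an animal. Values are log2 of the deposited intensity, with 1 probe set for each gene, the brightest over the 18 arrays. A gene is called when its adjusted p from limma is under 0.01, over all 45037 probe sets.

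Blood vessels of fat carry oxygen, fatty acids, glucose and heat, and brown fat is known for its dense capillary bed. VEGF-A, made by adipocytes among other cells, acts on the receptors Kdr and Flt1 of blood endothelium, whereas VEGF-C and VEGF-D act on Flt4, which is prominent in lymphatic endothelium. Angiopoietin 1 from cells around the vessel activates the receptor Tek and steadies the vessel wall, and angiopoietin 2 can oppose it. Lymphatic endothelium is set apart from blood endothelium by the transcription factor Prox1. Whole tissue was measured, so fewer cells of a type and less RNA in each cell cannot be told apart.

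The depots were as their titles say: the brown fat gene Zic1 read at least 9.67 in BAT and at most 3.74 elsewhere, and the mesothelial gene Msln at least 9.96 in mWAT and at most 5.75 elsewhere. Titles were used because the tissue and temperature among the characteristics name other groups. Genes known to rise in cold were also higher in the groups titled 6°C. Elovl3 read 6.49 to 7.20 at 28°C and 12.74 to 12.97 at 6°C in BAT. Ucp1 read 9.52 to 10.55 and 13.68 to 13.95 in sWAT, and 6.27 to 6.76 and 8.76 to 10.15 in mWAT. Array medians lay between 6.97 and 7.20. They were lower in BAT than in sWAT by a difference of -0.14 at 28°C and -0.17 at 6°C, and than in mWAT by -0.13 and -0.19, and centring the arrays on their medians left every called member with the same sign and 90 of 97 calls. The mWAT arrays 3 at 28 and 6°C correlated at r = 0.991 with each other over probe sets. With the remaining 4 mWAT arrays r was 0.949 to 0.969. Leaving out both arrays 3 reversed no call of a member and lost 4 of 97, which were Cdh5 for BAT against sWAT and Edn1 for BAT against mWAT at 28°C, and Egfl7 for BAT against mWAT and Flt1 for sWAT against mWAT at 6°C. The mean of a lymphocyte list (13 genes) was 6.86 and 6.79 on these arrays and 11.17 to 11.37 on the other mWAT arrays. It was 9.34 to 11.27 in sWAT and 5.75 to 6.41 in BAT.

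At 6°C Apold1 and Eng were higher and Angpt1 lower in BAT, Apold1 was higher in sWAT, and no member was called in mWAT. In BAT 2 of 37 members were higher at 6°C, where 2.8% of all genes tested were higher, and 1 was lower, where 2.53% of all genes were. The members' median difference was 0.06 log2, beside 0.01 for all genes, and 21 of 37 members had a positive difference.

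Apold1 is an endothelial gene known to be induced rapidly in vessels under stress. In BAT it read 10.15, 9.88 and 9.64 on arrays 1 to 3 at 28°C and 12.09, 11.61 and 12.16 at 6°C. In sWAT it read 9.09, 9.11 and 10.00 at 28°C and 10.77, 11.11 and 10.93 at 6°C. In mWAT it read 9.56, 9.25 and 9.30 at 28°C and 9.87, 9.64 and 9.94 at 6°C. Every cold array stood above every warm array of its own depot, and BAT at 6°C stood above all other groups. The mean of a red blood cell list (3 genes) did not overlap between temperatures either, at 5.81 to 6.56 and 6.63 to 7.01 in BAT, 5.30 to 5.76 and 6.02 to 6.54 in sWAT, and 6.10 to 6.27 and 6.33 to 7.08 in mWAT, at 28 and 6°C. Alas2 and Slc4a1 were higher at 6°C in each depot, while Hba-a1, far under the array medians, gave -0.12 in BAT, 0.31 in sWAT and -0.43 in mWAT. None of its 3 genes was called between temperatures in any depot, and the part of this list in the values of Apold1 was not tested. The rise of Apold1 was 2.06 ± 0.23 log2 (SE, 4.17-fold, adjusted p = 7.9e-05 in limma) in BAT and 1.53 ± 0.23 (2.90-fold, adjusted p = 0.0031) in sWAT. In mWAT the difference was 0.45 ± 0.23 and did not pass. The call in BAT was kept under every alternative run, at adjusted p up to 0.0058. The call in sWAT was lost when the sWAT arrays were fitted alone (adjusted p = 0.11) and without any of arrays 1 or 2 at 28°C or 1, 2 or 3 at 6°C (up to 0.025).

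Eng encodes endoglin, a co-receptor for TGF-beta family ligands on endothelium. In BAT it read 10.22, 10.16 and 10.50 at 28°C and 10.92, 11.05 and 11.36 at 6°C, so the groups did not overlap. The rise was 0.82 ± 0.17 (1.76-fold, adjusted p = 0.0052), and another probe set of Eng rose by 0.91 ± 0.20. In sWAT (10.12 to 10.64 against 10.61 to 10.70) and in mWAT (9.86 to 10.23 against 10.06 to 10.43) the groups overlapped. The call in BAT was lost without array 1 or 2 at 28°C or array 2 or 3 at 6°C, at adjusted p up to 0.032.

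The promoters of the genes that rose in cold are shown because these are the members that moved together in BAT. They are the 250 bases before the annotated start from RefSeq (GRCm38.p6), 5′ to 3′ on the strand of the gene. Capitals mark the core GGAAG of ETS factors, the family of the endothelial factor Erg, on either strand. Apold1 lies at chr6:134981751-134982000 (plus strand) and Eng at chr2:32646345-32646594 (plus strand).
Apold1: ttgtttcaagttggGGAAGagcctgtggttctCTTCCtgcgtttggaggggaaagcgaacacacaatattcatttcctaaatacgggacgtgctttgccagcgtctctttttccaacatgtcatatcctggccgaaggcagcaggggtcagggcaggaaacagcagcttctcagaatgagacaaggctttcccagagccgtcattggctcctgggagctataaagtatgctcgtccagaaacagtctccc
Eng: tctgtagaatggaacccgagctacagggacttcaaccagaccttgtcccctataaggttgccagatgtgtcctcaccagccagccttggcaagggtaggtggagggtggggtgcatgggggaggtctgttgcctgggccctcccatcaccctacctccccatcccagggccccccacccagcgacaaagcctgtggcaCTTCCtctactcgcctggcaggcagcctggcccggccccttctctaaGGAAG
Each promoter held the ETS core at 2 places. The Apold1 window also held the cyclic AMP response core TGACG at 1 place, 52 bases before the start, and the hypoxia core (ACGTG or GCGTG, searched together) at 1 place, while the Eng window held neither. Of all 32851 promoters listed, 64.1% held the ETS core, 17.8% the cyclic AMP core and 38.6% the hypoxia core on either strand. Among 24 members with a listed promoter, 14 held the ETS core, 3 the cyclic AMP core and 10 the hypoxia core. Angpt1 was not matched there.

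Angpt1 encodes angiopoietin 1, the ligand that activates Tek. In BAT it read 10.77, 10.46 and 10.18 at 28°C and 8.47, 8.60 and 7.87 at 6°C. In sWAT it read 8.37, 8.32 and 8.82 at 28°C and 8.89, 8.96 and 9.16 at 6°C. In mWAT it read 6.99, 6.97 and 8.03 at 28°C, near the array medians, and 8.05, 8.19 and 8.37 at 6°C. The cold arrays were thus below the warm ones in BAT and above them in both white depots. In BAT it fell by 2.16 ± 0.27 log2 (4.46-fold, adjusted p = 0.00018), and a second probe set fell by 1.90 ± 0.31. The differences in the white depots, 0.49 ± 0.27 in sWAT and 0.88 ± 0.27 in mWAT, did not pass. At the array medians the exact size of a change was not measured, which touches the mWAT values.

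**Figure D1:**
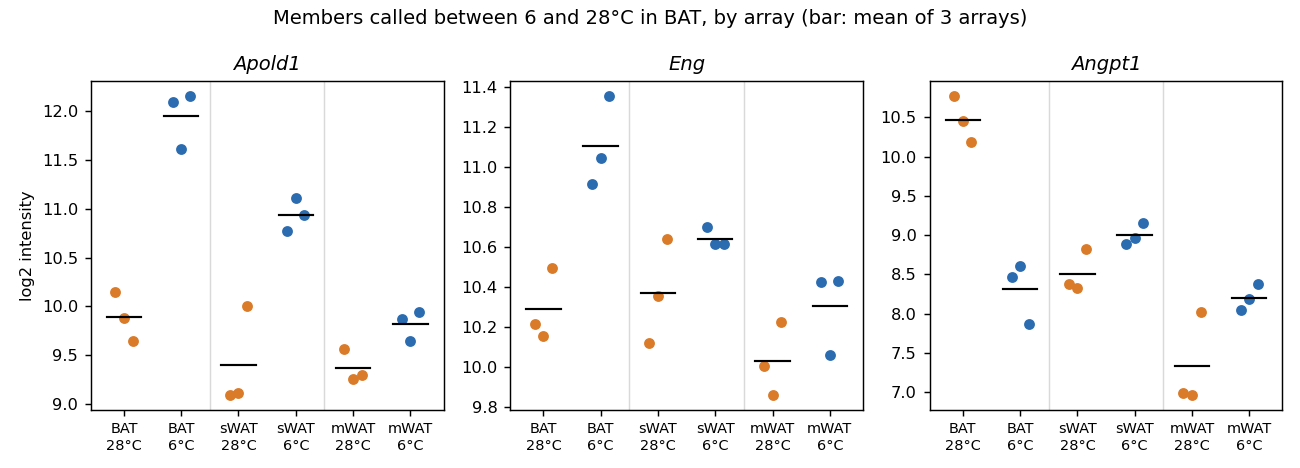
Log2 intensity (y axis) of Apold1, Eng and Angpt1 on the 3 arrays of each depot at 28°C (orange) and 6°C (blue), where the bar is the mean of 3 arrays. Apold1 at 6°C reached 12.09, 11.61 and 12.16 in BAT, and Angpt1 left its BAT level of 10.18 to 10.77 for 7.87 to 8.60.

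The difference of the cold responses was tested in the same fit. For Angpt1 the response in BAT was below that in sWAT by a difference of -2.65 ± 0.38 (adjusted p = 0.0039) and below that in mWAT by -3.03 ± 0.38 (adjusted p = 0.0013), or -3.30 without both mWAT arrays 3. The second call was lost when only the groups compared were fitted (adjusted p = 0.015). It was the only member of 37 called in either difference, where 0.467% and 0.566% of all genes were called. Apold1 came next for BAT against mWAT, at 1.61 ± 0.32 (adjusted p = 0.018). Between sWAT and mWAT limma called 0 members and 0% of all genes, with 3 members at an unadjusted p under 0.05. How many of all genes had an unadjusted p under 0.05 was not counted in any comparison. The BAT to sWAT call of Angpt1 was lost in 8 of the 18 fits that each left out 1 array, at adjusted p up to 0.013. These arrays were BAT 1 and 2 and sWAT 1 and 2 at 28°C, and BAT 1 and 3 and sWAT 2 and 3 at 6°C. Without sWAT array 3 at 28°C Apold1 also passed for BAT against mWAT, which made 2 members.

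Vegfb, Edn1 and Pdgfb fell short of 0.01 in BAT but had an adjusted p under 0.05, each with groups that did not overlap. Vegfb, a VEGF family ligand of Flt1, read 11.87, 11.86 and 11.87 on the warm arrays against 11.06, 11.19 and 11.06 on the cold ones, a difference of -0.76 ± 0.23 (adjusted p = 0.039). Edn1, which encodes the vasoconstrictor endothelin 1, read at most 7.50 at 28°C (mean 7.28 ± 0.25 SD, n = 3) and 8.28, 8.52 and 8.37 at 6°C (1.11 ± 0.30, adjusted p = 0.027). Its values at 28°C lay near the array medians, where the exact size was not measured. Pdgfb, the endothelial ligand that recruits mural cells, read 8.84, 8.57 and 8.61 at 28°C and 9.44, 9.16 and 9.39 at 6°C (0.65 ± 0.19, adjusted p = 0.036). Vegfb and Edn1 passed when both mWAT arrays 3 were left out, which made 5 members called in BAT. With the mean of a gene's probe sets in place of the brightest, Pdgfb (higher) and Vegfc (lower) passed, where the brightest probe set of Vegfc gave -0.43 ± 0.19 (adjusted p = 0.16). Vegfa itself, the main angiogenic ligand, was 11.69 to 11.78 at 28°C and 11.95 to 11.99 at 6°C (0.21 ± 0.20, adjusted p = 0.55). Its receptors Kdr (0.16 ± 0.16) and Flt1 (0.25 ± 0.22) and the endothelial surface genes Pecam1 (0.39 ± 0.16), Cdh5 (0.20 ± 0.25) and Emcn (0.41 ± 0.22) did not pass either. The groups of Vegfa and of Pecam1 (9.53 to 9.71 at 28°C and 9.96 to 10.09 at 6°C) did not overlap either. How many of all genes had groups without overlap was not counted.

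In sWAT 1 of 37 members was higher and 0 lower, where 0.72% and 0.022% of all genes were. An unadjusted p under 0.05 was found for 9 members, and the share of all genes at that p was not counted. Behind Apold1 stood Cldn5, the tight junction claudin of endothelium (0.88 ± 0.26, adjusted p = 0.13), Nos3, the endothelial nitric oxide synthase (0.66 ± 0.20, adjusted p = 0.14), and Kdr (0.48 ± 0.16, adjusted p = 0.19). The warm sWAT arrays differed among themselves: array 3 was the highest of its group for 30 of the 34 blood vessel and mural members and array 1 the lowest for 27. The mean of these 34 was 9.75, 9.90 and 10.30 on arrays 1 to 3 at 28°C and 10.30, 10.20 and 10.19 at 6°C. The lymphocyte list went the other way on the warm arrays, at 11.27, 10.25 and 9.43, and the skeletal muscle list read 10.20, 12.09 and 7.84. Beyond fits with each of these lists as a covariate, their part in the members' values was not tested.

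In mWAT limma called 0 members, where 0.0055% of all genes were higher and 0% lower. Without a counted share of all genes beside them, 4 members had an unadjusted p under 0.05. Of these Flt4, the lymphatic VEGF receptor, read 10.13, 10.05 and 9.45 at 28°C and 10.52, 10.52 and 10.22 at 6°C (0.54 ± 0.17, adjusted p = 0.87). The others were Angpt1, Nos3 and Egfl7, an endothelial secreted factor. Both mWAT arrays 3 were the highest of their group for most of the 34 blood vessel and mural members, 24 at 28°C and 22 at 6°C, and they were the mWAT arrays with the low lymphocyte list.

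In BAT the skeletal muscle list (15 genes) read 9.03, 12.74 and 12.31 at 28°C and 7.88, 10.31 and 8.59 at 6°C. Angpt1 was highest in warm BAT on array 1, where this list was lowest. With the muscle list as a covariate the cold differences in BAT were 1.85 for Apold1 and -2.28 for Angpt1, both still called, and 0.77 for Eng, which was not (adjusted p = 0.029).

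More members were called between depots than between temperatures. At 28°C BAT was higher than sWAT in 10 of 37 members and lower in 6, where 14.5% and 13% of all genes were. BAT was higher than mWAT in 16 and lower in 6, where 17.7% and 14.8% of all genes were. Between sWAT and mWAT 3 members were higher in sWAT and 3 in mWAT, where 3.05% and 4.82% of all genes were. The members' median difference was 0.30, 0.61 and 0.39 log2 in these comparisons, beside 0.08, 0.08 and 0.05 for all genes. All 3 lymphatic members were lower in BAT than in each white depot, and 10 and 16 of the 34 others were higher.

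The group means at 6°C share no array with those at 28°C, but all 18 arrays share 1 estimate of the spread. At 6°C BAT was higher than sWAT in 5 members and lower in 5 (13.4% of all genes each way). It was higher than mWAT in 17 and lower in 8 (21.3% and 18.9%), and sWAT was higher than mWAT in 7 and lower in 5 (5.17% and 5.01%). Called with the same sign at both temperatures were 7 members for BAT against sWAT, 18 for BAT against mWAT and 4 for sWAT against mWAT, and 0 were called with opposite signs. The share of all genes called at both temperatures was not computed, so these counts have no background beside them. BAT against sWAT and BAT against mWAT use the same BAT arrays. The count for BAT against sWAT at 6°C was 5 without BAT array 3 at 6°C and also without sWAT array 1 at 6°C. With only the groups compared in the fit, 0 members were called between sWAT and mWAT at 28°C and 2 at 6°C. With the mean of a mesothelium list as a covariate, 0 members were called between depots in the comparisons with mWAT at either temperature. That list was high in mWAT alone (9.97 to 11.43, against at most 7.22 elsewhere). The fit therefore hardly separates the list from the depot, and the lost calls say little about the members.

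**Figure D2:**
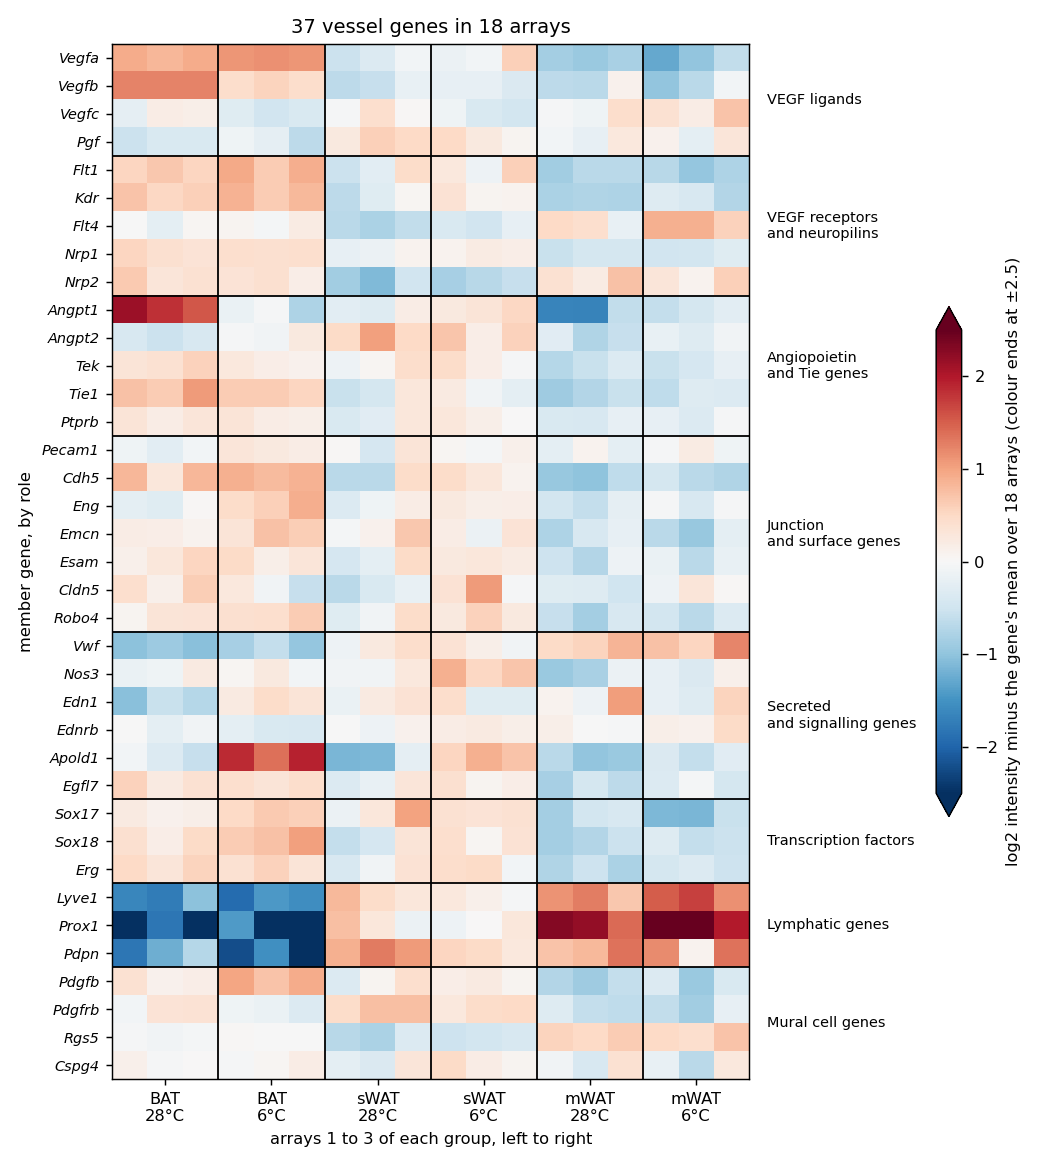
Log2 intensity of the 37 members (rows, by role) on 18 arrays (columns, 3 for each depot and temperature), each minus the gene's mean over all arrays, with red higher and blue lower. The 3 lymphatic genes are blue in BAT, Angpt1 is deepest red in warm BAT, and sWAT array 3 at 28°C is redder than its group in most blood vessel rows.

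Among the VEGF ligands Vegfa led. It read 11.78, 11.69 and 11.78 in BAT at 28°C and 11.95, 11.99 and 11.95 at 6°C. In sWAT it read 10.31, 10.51 and 10.79 at 28°C and 10.71, 10.79 and 11.46 at 6°C. In mWAT it read 10.01, 9.93 and 10.04 at 28°C and 9.56, 9.86 and 10.25 at 6°C. BAT stood above both white depots on every array. The fold over sWAT was 2.32 at 28°C (adjusted p = 0.00023) and 1.97 at 6°C (adjusted p = 0.0014), and over mWAT it was 3.38 and 4.21. At 6°C sWAT was also higher than mWAT (2.14-fold, adjusted p = 0.0015), with sWAT array 3 the highest. Vegfb was higher in BAT than in sWAT (3.28-fold) and mWAT (3.11-fold) at 28°C, and at 6°C than in mWAT (2.08-fold). Vegfc, the lymphatic ligand, was called only in BAT against mWAT at 6°C, where BAT was lower (1.76-fold). This call was lost without BAT array 2 or mWAT array 3 at 6°C (adjusted p up to 0.012). Pgf, the placental growth factor, was called only in BAT against sWAT at 28°C, lower in BAT (1.83-fold), and lost the call without BAT array 1 or sWAT array 2 at 28°C (up to 0.011).

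Of the VEGF receptors, Flt1 led. It read 11.04, 11.19 and 11.05 in BAT, 9.98, 10.24 and 10.98 in sWAT and 9.64, 9.84 and 9.84 in mWAT at 28°C. At 6°C it read 11.45, 11.14 and 11.41 in BAT, 10.78, 10.39 and 11.12 in sWAT and 9.81, 9.55 and 9.75 in mWAT. The lowest BAT array was above the highest mWAT array by more than the spread within each, and BAT exceeded mWAT 2.49-fold at 28°C and 3.11-fold at 6°C. Kdr, the main signalling receptor for VEGF-A, had means of 11.96 ± 0.10 in BAT, 11.04 ± 0.35 in sWAT and 10.58 ± 0.02 in mWAT at 28°C (SD, n = 3). BAT exceeded sWAT 1.89-fold (adjusted p = 0.00051) and mWAT 2.59-fold (adjusted p = 1.1e-05). Nrp1, a co-receptor of Kdr, was higher in BAT than in mWAT (1.88-fold at 28°C, 1.77-fold at 6°C) and at 28°C than in sWAT (1.43-fold).

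Flt4 and Nrp2 are the receptor and co-receptor for VEGF-C. Flt4 was lower in sWAT than in mWAT at 28°C (means 8.93 and 9.88, 1.93-fold) and at 6°C (9.28 and 10.42, 2.21-fold), and the first call was lost without mWAT array 1 at 28°C. It was also lower in sWAT than in BAT at 28°C (1.55-fold, lost in 11 of 18 fits without 1 array) and lower in BAT than in mWAT at 6°C (1.64-fold, lost in 3 of 18). Nrp2 was lower in sWAT than in mWAT 2.39-fold at 28°C and 2.04-fold at 6°C, and lower in sWAT than in BAT at 28°C (2.39-fold) and at 6°C (adjusted p = 0.00074). For Nrp2 BAT and mWAT had means of 11.74 and 11.74 at 28°C and 11.60 and 11.63 at 6°C, with overlapping arrays.

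The angiopoietin and Tie genes were led by Angpt1, 8.83-fold higher in BAT than in mWAT and 3.90-fold higher than in sWAT at 28°C. At 6°C neither was called, and the arrays of BAT and mWAT overlapped. Between the white depots at 28°C Angpt1 was higher in sWAT (2.26-fold, adjusted p = 0.0099), a call lost in 16 of 18 fits without 1 array. Angpt2, the context-dependent antagonist of Angpt1, was higher in sWAT than in BAT (2.16-fold) and than in mWAT (2.31-fold) at 28°C. Tie1, the partner receptor of Tek, was higher in BAT than in mWAT 2.91-fold at 28°C and 2.05-fold at 6°C, and than in sWAT 2.07-fold at 28°C. Tek was higher in BAT than in mWAT at 28°C (1.96-fold) and 6°C (1.49-fold), and Ptprb, the phosphatase that restrains Tek, at 28°C (1.51-fold). The calls of Tek at 6°C and of Ptprb were lost when some single arrays were left out, at adjusted p up to 0.042 and 0.026.

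Junction and surface genes were led by Cdh5, the vascular cadherin of endothelial junctions. It read 9.65, 9.09 and 9.65 in BAT, 8.13, 8.14 and 9.27 in sWAT and 7.87, 7.81 and 8.19 in mWAT at 28°C. At 6°C it read 9.69, 9.60 and 9.68 in BAT, 9.27, 9.09 and 8.89 in sWAT and 8.37, 8.14 and 8.06 in mWAT. Every BAT array was above every mWAT array, and the fold was 2.84 at 28°C and 2.76 at 6°C. Against sWAT BAT was called at 28°C (1.93-fold, adjusted p = 0.0092), where sWAT array 3 overlapped BAT, and 15 of 18 fits without 1 array lost it. Robo4, a guidance receptor of endothelium, was higher in BAT than in mWAT (1.79-fold at 28°C, lost in 2 of 18 fits, and 1.97-fold at 6°C), and at 6°C so were Eng (1.75-fold) and Emcn, the capillary and venous sialomucin endomucin (2.27-fold).

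Pecam1 encodes CD31, the usual stain for endothelium, and differed least of all members: its group means ranged over 0.39 log2, from 9.64 ± 0.10 in BAT at 28°C to 10.03 ± 0.06 in BAT at 6°C. It was called in none of the 12 comparisons, as were the adhesion gene Esam, Cldn5, Nos3 and the pericyte proteoglycan gene Cspg4. For Pecam1 the difference between BAT and mWAT at 28°C was -0.01 ± 0.16. On the same arrays and in the same comparison Cdh5, Tie1 and Kdr were 2.84-fold, 2.91-fold and 2.59-fold higher in BAT. The members of blood endothelium did not differ between depots by a common amount.

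Among secreted and signalling genes Vwf, the clotting factor stored by endothelium, was lower in BAT than in each white depot, against the sign of most blood vessel members called. Its means were 9.09 ± 0.07 in BAT, 10.27 ± 0.29 in sWAT and 10.71 ± 0.20 in mWAT at 28°C, 2.27-fold (adjusted p = 0.00026) and 3.09-fold (adjusted p = 1.1e-05) lower in BAT. At 6°C it was 1.91-fold and 3.07-fold lower in BAT, the first of which was lost without BAT array 3 or sWAT array 1 at 6°C (adjusted p up to 0.011). Apold1 led this role at 6°C, 4.39-fold higher in BAT than in mWAT and 2.02-fold higher than in sWAT (lost in 4 of 18 fits without 1 array), while it was called in no depot comparison at 28°C. Edn1 was lower in BAT than in mWAT at 28°C (2.16-fold, adjusted p = 0.0090), a call lost in 14 of 18 fits without 1 array, and -0.76 (adjusted p = 0.017) without both mWAT arrays 3. The BAT values of Edn1 at 28°C lay near the array medians, where the exact size was not measured. Ednrb, the endothelin B receptor, was lower in BAT at 6°C than in sWAT (1.44-fold, lost in 4 of 18 fits) and mWAT (1.49-fold). Egfl7 was higher in BAT than in mWAT at 28°C (2.05-fold) and 6°C (1.59-fold, lost in 5 of 18 fits).

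The transcription factors were led by Sox17, a factor of arterial endothelium. At 6°C it read 10.22, 10.38 and 10.31 in BAT, 10.11, 10.06 and 10.10 in sWAT and 8.60, 8.58 and 9.17 in mWAT, so mWAT stood below the others. At 28°C it read 9.94, 9.83 and 9.87 in BAT, 9.57, 10.00 and 10.72 in sWAT and 8.87, 9.26 and 9.31 in mWAT, and no depot comparison was called. At 6°C BAT exceeded mWAT 2.87-fold and sWAT exceeded mWAT 2.47-fold. Sox18 was higher in BAT than in mWAT at 28°C (2.08-fold) and 6°C (2.43-fold). Erg was higher 2.19-fold and 1.82-fold, with mWAT means of 6.99 and 7.24 near the array medians, where the exact size was not measured.

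**Figure D3:**
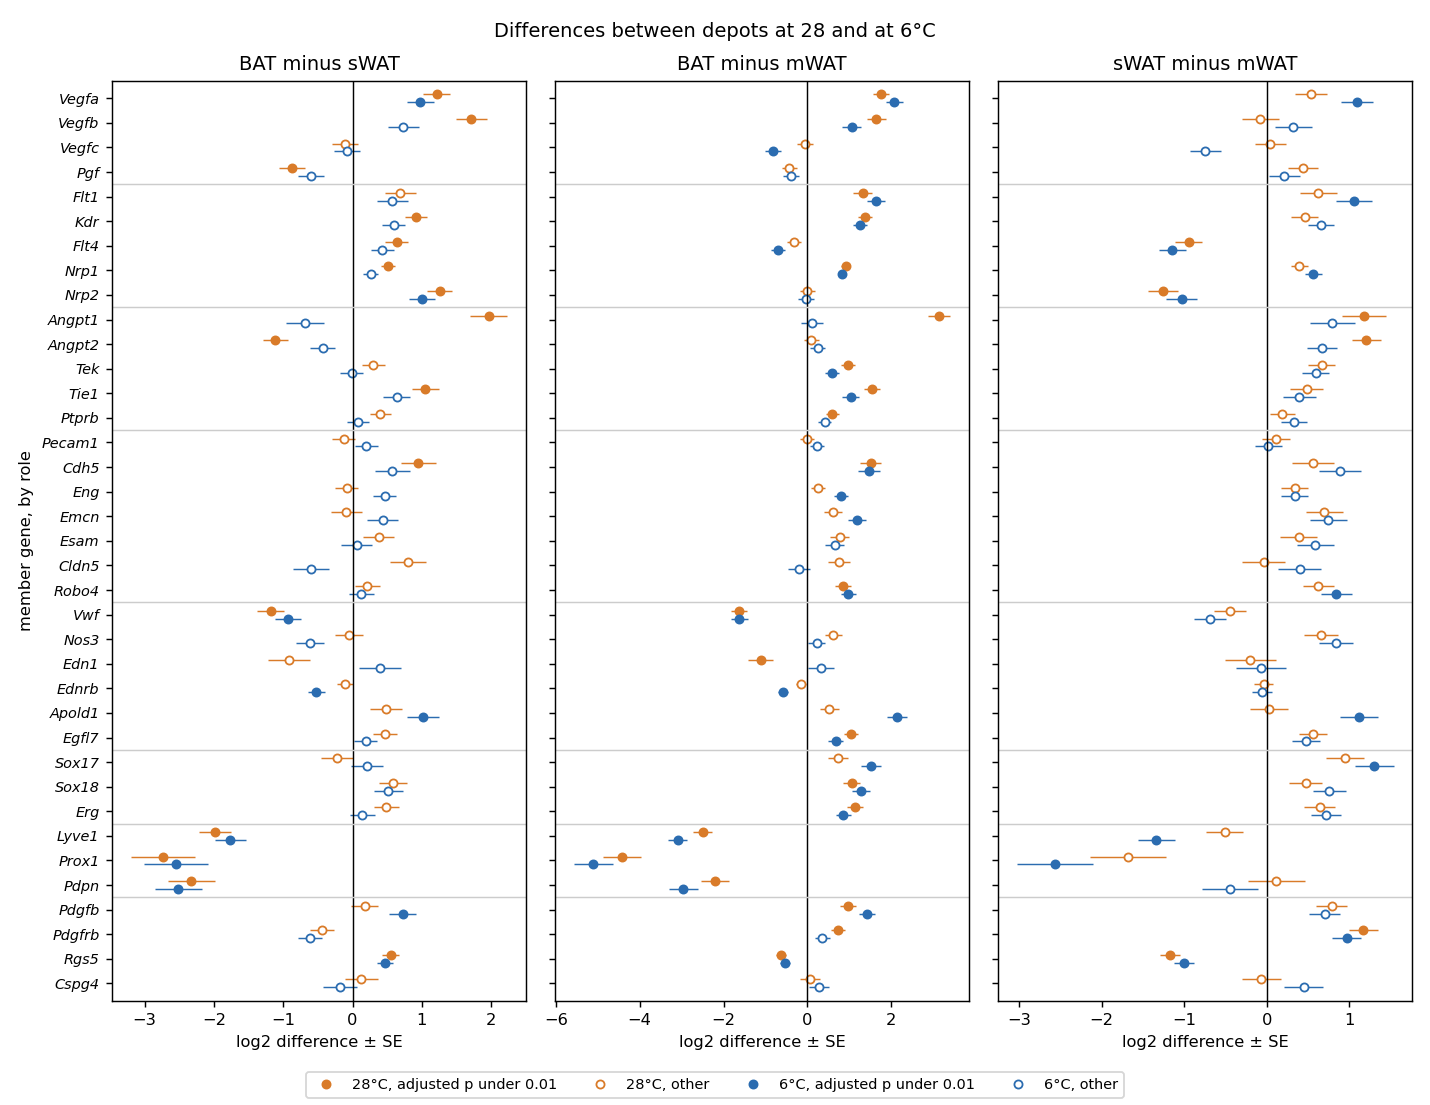
Difference in log2 intensity between depots (x axis, ± SE from limma, n = 3 arrays for each group) for the 37 members (y axis, by role) at 28°C (orange) and 6°C (blue), filled where the adjusted p was under 0.01. The 3 lymphatic genes lie left of 0 in both BAT panels, with Prox1 at -4.42 and -5.10 against mWAT, while most blood vessel genes lie right of 0 against mWAT.

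The promoters of 4 members are shown because their genes moved in opposite directions between depots: Kdr and Tie1 of blood endothelium, higher in BAT, and Prox1 and Pdpn of lymphatic endothelium, lower in BAT. They are given as above, 250 bases each with the ETS core GGAAG in capitals on either strand. Kdr lies at chr5:75978456-75978705, Tie1 at chr4:118489850-118490099, Prox1 at chr1:190170828-190171077 (the first of 2 starts in the table) and Pdpn at chr4:143299565-143299814, each on the minus strand.
Kdr: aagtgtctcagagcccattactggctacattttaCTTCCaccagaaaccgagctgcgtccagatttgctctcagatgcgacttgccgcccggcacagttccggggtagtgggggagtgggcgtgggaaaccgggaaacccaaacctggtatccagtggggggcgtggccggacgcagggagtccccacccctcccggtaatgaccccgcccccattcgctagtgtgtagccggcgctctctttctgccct
Tie1: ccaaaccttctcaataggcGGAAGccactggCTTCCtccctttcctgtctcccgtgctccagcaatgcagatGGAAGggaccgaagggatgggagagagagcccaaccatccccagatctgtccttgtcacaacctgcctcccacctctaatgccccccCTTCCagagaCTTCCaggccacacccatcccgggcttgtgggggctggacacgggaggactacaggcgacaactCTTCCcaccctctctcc
Prox1: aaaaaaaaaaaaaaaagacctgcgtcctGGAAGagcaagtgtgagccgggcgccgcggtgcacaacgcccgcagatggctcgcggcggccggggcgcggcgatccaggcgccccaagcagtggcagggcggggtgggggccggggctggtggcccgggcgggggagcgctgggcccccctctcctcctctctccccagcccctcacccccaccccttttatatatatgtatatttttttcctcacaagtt
Pdpn: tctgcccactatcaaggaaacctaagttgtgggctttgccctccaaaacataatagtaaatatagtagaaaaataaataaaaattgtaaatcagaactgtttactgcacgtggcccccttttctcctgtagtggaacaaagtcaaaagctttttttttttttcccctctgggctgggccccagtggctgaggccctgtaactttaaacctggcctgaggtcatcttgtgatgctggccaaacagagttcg
The ETS core was found at 1 place for Kdr, 6 for Tie1, 1 for Prox1 and 0 for Pdpn. The hypoxia core was found at 2 places for Kdr and at 2 overlapping places, 1 on each strand, for Pdpn.

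Among all members the widest difference between depots was that of a lymphatic gene. Prox1, the factor that specifies lymphatic endothelium, read 4.44, 5.58 and 4.80 in BAT at 28°C and 5.97, 4.85 and 3.88 at 6°C, under the medians of the arrays. In sWAT it read 8.13, 7.66 and 7.23 at 28°C and 7.27, 7.39 and 7.67 at 6°C. In mWAT it read 9.68, 9.59 and 8.81 at 28°C and 10.17, 10.48 and 9.36 at 6°C. The depots did not overlap, with mWAT highest and BAT lowest. The differences were -2.74 ± 0.46 (adjusted p = 0.00033) against sWAT and -4.42 ± 0.46 (adjusted p = 3.3e-06) against mWAT at 28°C, and -2.54 and -5.10 at 6°C. Since BAT lay under the array medians, the exact size was not measured. Of 2 dimmer probe sets of Prox1, the brighter was also lower in BAT than in mWAT (-2.20 and -2.44, both called), while against sWAT it gave -0.07 and -0.21, not called, so the call against sWAT rests on 1 probe set.

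Lyve1, a hyaluronan receptor of lymphatic endothelium that some macrophages also carry, had means of 8.19 ± 0.39 in BAT, 10.17 ± 0.27 in sWAT and 10.68 ± 0.32 in mWAT at 28°C. At 6°C they were 8.01 ± 0.25, 9.77 ± 0.16 and 11.11 ± 0.29. BAT was lower than sWAT 3.95-fold and 3.39-fold, and lower than mWAT 5.63-fold and 8.55-fold, and a second probe set was called with the same sign in each. Pdpn, which encodes podoplanin of lymphatic endothelium and also of fibroblasts and mesothelium, had means of 8.61 ± 0.55 in BAT, 10.94 ± 0.21 in sWAT and 10.82 ± 0.35 in mWAT at 28°C, 5.02-fold and 4.62-fold lower in BAT. At 6°C it was 5.71-fold and 7.79-fold lower. Between the white depots Prox1 and Lyve1 were higher in mWAT at 6°C (5.91-fold and 2.52-fold), and at 28°C neither was called. None of the 3 was called between 6 and 28°C in any depot.

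Markers of other cells moved with these differences. Beyond fits with the lymphocyte, skeletal muscle or mesothelium list as a covariate, their part in them was not tested. Over all comparisons 27 of 97 calls of members were lost with the lymphocyte list and 10 with the skeletal muscle list. The lymphocyte list did not overlap between BAT (5.75 to 6.41) and sWAT (9.34 to 11.27). That fit therefore separates the list from the depot only in part, and the lost calls do not show that lymphocytes carry the differences. The macrophage list (11 genes) had means of 8.27 to 8.88 on the BAT arrays, 9.59 to 10.19 on the sWAT arrays and 9.58 to 10.33 on the mWAT arrays, with 8 of 11 genes lower in BAT than in each white depot at 28°C. The fibroblast list averaged 10.31 to 11.21 in BAT and 11.94 to 12.72 in the white depots, with all 8 genes lower in BAT in each comparison of BAT with a white depot. The mesothelium list (8 genes) had means of 5.32 to 6.34 on the BAT arrays, at most 7.22 on the sWAT arrays and 9.97 to 11.43 on the mWAT arrays. Of the lymphocyte list 8 of 13 genes were lower in BAT than in sWAT and 6 of 13 lower than in mWAT at 28°C. The mWAT arrays 3, with that list at 6.86 and 6.79, read 8.81 and 9.36 for Prox1 and 10.32 and 10.79 for Lyve1. A neuron list (5 genes) had means of 10.37 to 11.55 in mWAT and at most 6.56 elsewhere, and a mammary epithelium list (10 genes) had means of 10.72 to 11.59 in sWAT and at most 7.42 elsewhere. A list of white and brown adipocyte genes (10 genes, among them Ucp1, Cidea, Zic1, Ppara and Elovl3) had means of 12.13 to 12.56 in BAT and 9.16 to 11.71 in the white depots. Adipoq, also on this list, read 13.50 to 13.85 over all groups, so the gap in the mean is not one of every adipocyte gene.

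**Figure D4:**
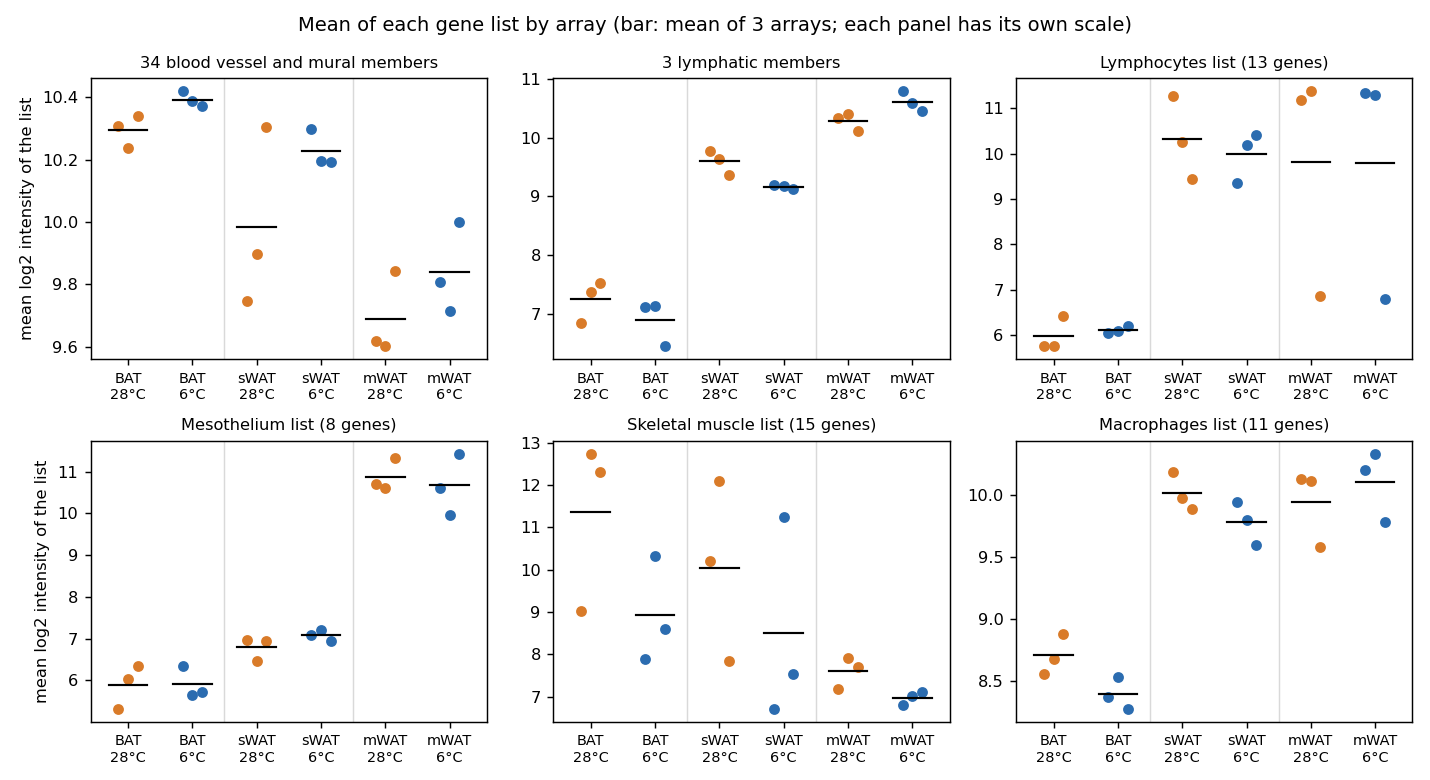
Mean log2 intensity (y axis, each panel on its own scale) of the 34 blood vessel and mural members, the 3 lymphatic members and 4 lists of other cell types on each array, at 28°C (orange) and 6°C (blue), where the bar is the mean of 3 arrays. The lymphocyte list drops to 6.86 and 6.79 on the mWAT arrays 3, and the lymphatic members sit at 6.44 to 7.52 in BAT and at 9.13 to 10.79 in the white depots.

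The genes grouped under mural cells, which include the endothelial ligand Pdgfb, did not share an order. Pdgfb, which led the role, read 8.84, 8.57 and 8.61 in BAT, 8.10, 8.52 and 8.88 in sWAT and 7.71, 7.57 and 7.85 in mWAT at 28°C. At 6°C it read 9.44, 9.16 and 9.39 in BAT, 8.63, 8.68 and 8.52 in sWAT and 8.11, 7.52 and 8.07 in mWAT. BAT was above mWAT on every array, 1.95-fold at 28°C and 2.69-fold at 6°C, and above sWAT at 6°C (1.65-fold, adjusted p = 0.0082, lost in 10 of 18 fits without 1 array). Its receptor Pdgfrb, on mural cells and fibroblasts, was higher in sWAT than in mWAT (2.25-fold at 28°C, 1.96-fold at 6°C) and at 28°C higher in BAT than in mWAT (1.66-fold, lost in 4 of 18 fits). Rgs5, a regulator of G protein signalling in pericytes, ran in the order mWAT, BAT, sWAT. Its means were 13.71 ± 0.07, 13.08 ± 0.03 and 12.53 ± 0.24 at 28°C and 13.68 ± 0.14, 13.15 ± 0.02 and 12.68 ± 0.06 at 6°C, and all 6 of its depot comparisons were called. The calls between BAT and sWAT were lost in 3 of 18 fits without 1 array at 28°C and 6 of 18 at 6°C. With the mesothelium covariate, which hardly separates from the depot, the differences between BAT and mWAT turned to 0.069 at 28°C and 0.128 at 6°C.

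Wider lists of the same systems, chosen by function, were read beside the shares of all genes called, which in BAT were 2.8% higher and 2.53% lower at 6°C. In BAT 2 of 22 further VEGF and hypoxia pathway genes were higher at 6°C and 1 lower: Egln3 (4.39-fold) and Egln1 (1.61-fold), oxygen sensors that mark HIF for degradation, rose, and Aplnr, the apelin receptor of endothelium, fell by 1.50 ± 0.23. Egln3 read 8.75, 9.43 and 9.06 at 28°C and 11.48, 10.82 and 11.35 at 6°C. Among 16 Notch, ephrin and sphingosine phosphate genes Hey1, a Notch target, was higher (3.03-fold), among 28 other endothelial genes the lectin gene Clec14a (2.21-fold), and among 12 other mural and smooth muscle genes the pericyte gene Higd1b (2.70-fold). None of 9 capillary fatty acid genes or 8 other lymphatic genes was called, with 2 of each at an unadjusted p under 0.05. In sWAT and mWAT limma called 0 genes of these 6 lists, with 1 to 6 genes of a list at an unadjusted p under 0.05 in sWAT and 0 to 3 in mWAT. The share of all genes at that p was not counted.

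Between BAT and mWAT at 28°C 7 of 8 further lymphatic genes were lower in BAT, as the lymphatic members were, and 1 was higher. Of all genes 14.8% were lower and 17.7% higher. Within mWAT the 2 lists ran apart. At each temperature the mean of the further genes was highest on array 3 (9.99 and 10.31), and that of the lymphatic members was lowest there (10.12 and 10.45). Itga9 was 13.3-fold lower in BAT, and it too was highest on the mWAT arrays 3 (11.68 and 11.77). Mmrn1, Sema3d and Reln had means of 4.36, 6.04 and 6.05 in BAT, under the array medians, and 9.71, 9.19 and 8.79 in mWAT, and the size of their differences was not measured. Of the 12 mural and smooth muscle genes 9 were lower in BAT and 1 higher, among them the contractile genes Myh11 (14.6-fold), Tagln (9.37-fold), Smtn (8.95-fold) and Cnn1, whose BAT mean of 7.18 lay at the array medians against 12.68 in mWAT. Of 9 capillary fatty acid genes 4 were higher in BAT, which were Tcf15 (4.79-fold), Gpihbp1 (4.59-fold), Meox2 (2.34-fold) and Cd36 (1.43-fold). Tcf15 and Meox2 are transcription factors of fatty acid transporting endothelium, Gpihbp1 carries lipoprotein lipase into the capillary, and Cd36 takes up fatty acids. Of the Notch list 6 of 16 were higher in BAT and 1 lower, among them Notch4 (3.44-fold), Jag2 (2.31-fold), and Heyl and Dll4, whose mWAT means of 6.86 and 6.80 lay under the array medians. The other endothelial list was split, 7 of 28 higher (Sox7 3.80-fold, Arhgef15 3.28-fold) and 9 lower (Vcam1 3.97-fold, Icam1 3.95-fold), as was the VEGF and hypoxia list, 6 of 22 higher and 8 lower (Thbs2 6.84-fold and Egln3 4.17-fold lower, Angptl4 4.35-fold higher, and Thbs1 lower with BAT under the array medians).

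Against sWAT at 28°C, where 14.5% of all genes were higher and 13% lower in BAT, BAT was lower in 6 of 8 further lymphatic genes and higher in 1, lower in 4 of 12 mural and smooth muscle genes and higher in 1, and higher in 1 of 9 capillary fatty acid genes, Tcf15 (3.12-fold). It was higher in 3 of 16 Notch list genes and lower in 1, higher in 2 of 28 other endothelial genes and lower in 7, and higher in 5 of 22 VEGF and hypoxia genes and lower in 6. The other endothelial genes with the largest differences were Icam1 (4.06-fold), Vcam1 (3.30-fold) and Selp (2.91-fold), which encode adhesion receptors, and Plvap, which forms the diaphragms of endothelial openings (2.77-fold), each lower in BAT. Thbs2, a secreted inhibitor of vessel growth, was 4.62-fold lower. Thbs1, another such inhibitor, read 5.57, 6.25 and 6.73 in BAT, under the array medians, and 8.67, 10.59 and 8.81 in sWAT, with array 2 above the others. In sWAT, where 3.05% of all genes were higher and 4.82% lower than in mWAT at 28°C, 9 of 12 mural and smooth muscle genes were lower and 2 higher, and 4 of 8 further lymphatic genes were lower.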

How the data were processed

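RNA of 18 tissue samples, 3 for each depot and temperature, was hybridised to Affymetrix mouse arrays. The authors background-adjusted, summarised and normalised the probe intensities with Bioconductor and deposited 1 linear intensity for each probe set and array; the algorithm is not given in the sources used here, and the array type is named differently in the methods and the labels. Here log2 of the deposited intensity was taken with a pseudocount of 0 and no further normalization. limma 3.58.1 (R 4.3.3) fitted 6 group means to 45037 probe sets, with 64 control probe sets left out, and p-values were adjusted by Benjamini-Hochberg over all of them. Of these, 34945 had 1 gene, 932 several and 9160 none. The brightest probe set stood for a gene. A call is an adjusted p under 0.01, in 12 comparisons, and the scripts were tested on simulated data. Groups came from titles, and replicate numbers only name arrays. The labels tie no array to a mouse, so p-values measure the spread between arrays, and 3 arrays a group limit the precision. Every member was named, those called in cold and the leaders of a role by every array, and from each wider list up to 4 called genes of largest difference. The members and lists were chosen with earlier results of these data known. Alternatives were another threshold, normalization, centring, filter, variance model, probe set rule, 3 covariates, the groups fitted and left-out arrays.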

Additional observations from a re-analysis of the deposited data

Results flagged for a closer look

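The response of Angpt1 to cold differed between depots in the test of the difference itself. The BAT response minus the sWAT response was -2.65 ± 0.38 log2 (SE, limma adjusted p = 0.0039), and the BAT response minus the mWAT response was -3.03 ± 0.38 (adjusted p = 0.0013). All 3 cold BAT arrays lay below all 3 warm ones, and all cold arrays of both white depots lay above the warm ones of their depot. A second, dimmer probe set of Angpt1 gave -2.68 (adjusted p = 0.0073) against sWAT and -2.21 (adjusted p = 0.017) against mWAT.

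Clec14a, which encodes a lectin of endothelium, was the gene of the wider lists whose cold response differed between BAT and sWAT, by 1.54 ± 0.24 (adjusted p = 0.0057). It read 8.55, 8.29 and 8.41 in BAT at 28°C and 9.42, 9.63 and 9.64 at 6°C. In sWAT it read 8.69, 8.17 and 8.99 at 28°C and 8.26, 8.14 and 8.26 at 6°C, with overlapping groups.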

How the results depend on the processing

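Over 2813 alternatives for 97 calls of members, 2490 kept the call, 315 kept the direction alone and 8 reversed. All 8 reversals came with the mesothelium covariate: for BAT minus mWAT at 28°C Edn1 became 1.44, Pdpn 0.94 and Rgs5 0.069, and at 6°C Vegfc became 0.741, Ednrb 0.0347, Egfl7 -0.0917, Pdpn 0.0512 and Rgs5 0.128. That covariate left 0 members called in BAT against mWAT at 28°C and 6°C and 0 in sWAT against mWAT at both. The list was high in mWAT alone, so that fit hardly separates it from the depot, and these changes say little about the members. At an adjusted p under 0.05 the members called were 6 for cold in BAT, 14 and 23 for sWAT against mWAT at 28 and 6°C, 17 for BAT against sWAT at 6°C, and 2 for the cold response in BAT against mWAT. With only the groups compared they were 0 for cold in sWAT, 10 for BAT against sWAT at 28°C, 0 and 2 for sWAT against mWAT, and 0 for the cold response in BAT against mWAT. With the lymphocyte covariate they were 5 for cold in BAT, 13 for sWAT against mWAT at 28°C, 3 for the cold response in BAT against sWAT and 2 against mWAT. For cold in BAT the mean of a gene's probe sets gave 5 (Vegfc and Pdgfb in addition), and leaving out both mWAT arrays 3 gave 5. The filter on dim probe sets and the trended, robust variance each gave 2 for the cold response in BAT against mWAT. The share of all genes called was not counted under any alternative threshold, setting or left-out array, so these counts have no background beside them. The causes were not tested.

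Leaving out 1 array gave 2 to 3 calls for cold in BAT and 0 to 1 in sWAT. It gave 12 to 21, 18 to 23 and 4 to 7 for BAT against sWAT, BAT against mWAT and sWAT against mWAT at 28°C, and 5 to 13, 21 to 27 and 8 to 16 at 6°C. The cold response in BAT against sWAT gave 0 to 1, and against mWAT 1 to 2. No paired analysis was possible because the labels tie no array to a mouse and the replicate numbers follow accession order. Values near the array medians of 6.97 to 7.20 limit the size of the differences of genes with a group there, among them Prox1, Erg, Angpt1, Edn1, Mmrn1, Sema3d, Reln and Thbs1.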

Other observations

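At 6°C the wider vessel lists again differed between depots. In BAT against mWAT 21.3% of all genes were higher and 18.9% lower. Of 8 further lymphatic genes 7 were lower in BAT than in mWAT and 1 higher, among them Mmrn1 and Sema3d, whose BAT means of 5.47 and 5.05 lay under the array medians, so that the size was not measured. Of 9 capillary fatty acid genes 4 were higher in BAT than in mWAT, led by Tcf15 (4.37-fold) and Gpihbp1 (3.56-fold). In sWAT, where 5.17% of all genes were higher than in mWAT, 3 of these 9 were higher, led by Gpihbp1 (3.45-fold). Between BAT and sWAT at 6°C, where 13.4% of all genes were called each way, limma called 0 of these 9 genes. An unadjusted p under 0.05 was found for 2 of them, again without a counted share of all genes.

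A pancreas list (6 genes) had a mean of 10.7 log2 on BAT array 3 at 6°C, 10.1 on mWAT array 1 at 28°C and 14.2 on mWAT array 2 at 6°C, and at most 7.24 on the other arrays. A list of high endothelial venule genes (4 genes) had a mean of 6.84 and 6.56 on the mWAT arrays 3 and of 9.42 to 9.67 on the other mWAT arrays. The part of these cells in the members' values was not tested.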
